A study of Rattus norvegicus with 3 samples.

Results

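The serotonin receptors of the rat motor cortex were examined as a family of 10 genes, Htr1a, Htr1b, Htr1f, Htr2a, Htr2c, Htr3a, Htr4, Htr5a, Htr6 and Htr7, chosen by symbol from the 30957 genes of the tables. Each symbol had 1 gene ID. The tissue came from 3 male Sprague-Dawley rats (animals 32, 39 and 68) that received no treatment. The labels give 8 weeks as the time, without saying what it is counted from, and call the animals the normal group. There was 1 group and 1 mRNA library per animal, so levels could be set against each other within an animal, and differences between animals, dissections and libraries cannot be told apart. Levels are FPKM (fragments scaled to gene length and to library size) on the rat build Rnor_6.0, and errors are SDs over the 3 animals unless stated otherwise.

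Serotonin reaches the cortex through axons of raphe neurons in the brainstem, and the receptors on cortical cells decide what the signal does there. The Htr1 and Htr5a receptors couple to inhibitory G proteins of the Gi/o class, which lower cyclic AMP and open potassium channels. Htr2a and Htr2c couple to Gq and phospholipase C, Htr4, Htr6 and Htr7 to Gs and adenylyl cyclase, and Htr3a encodes a ligand-gated cation channel subunit. In the cortex Htr1a and Htr2a are known from pyramidal neurons and Htr3a from a class of interneurons. Htr2c is known for its very high level in the choroid plexus, the epithelium that makes cerebrospinal fluid.

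Promoters of Htr2c and Htr5a are shown because these receptors had opposite patterns over the animals, described below: Htr2c was highest in animal 68, and Htr5a was highest in animal 32. Both are RefSeq sequences on the build GRCr8, from 250 bases before the annotated start to 50 bases after it. They are written 5′ to 3′ on the strand given there, with CG dinucleotides in capitals. For Htr5a that is the minus strand, while the measured Htr5a gene lies on the plus strand in Rnor_6.0. Whether this window belongs to the measured Htr5a gene model was not tested.
Htr2c (chrX:115452940-115453239, plus strand): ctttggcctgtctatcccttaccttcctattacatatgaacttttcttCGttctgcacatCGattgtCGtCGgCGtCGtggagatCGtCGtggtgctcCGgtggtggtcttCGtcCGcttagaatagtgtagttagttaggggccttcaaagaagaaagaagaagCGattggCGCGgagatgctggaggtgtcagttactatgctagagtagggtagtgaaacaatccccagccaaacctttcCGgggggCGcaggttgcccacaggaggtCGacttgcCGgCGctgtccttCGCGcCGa
Htr5a (chr4:8188436-8188735, minus strand): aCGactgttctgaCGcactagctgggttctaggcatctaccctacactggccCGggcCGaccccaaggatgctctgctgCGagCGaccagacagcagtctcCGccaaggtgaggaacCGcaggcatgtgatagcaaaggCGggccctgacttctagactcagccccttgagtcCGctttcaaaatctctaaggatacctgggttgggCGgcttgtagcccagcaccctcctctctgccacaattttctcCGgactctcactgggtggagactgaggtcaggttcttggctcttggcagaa
The Htr2c window held 22 CG dinucleotides and the Htr5a window 12, against a median of 7 over 33469 promoters of the same length. Htr1b, Htr1f, Htr6 and Htr7 also had an entry, with 11, 0, 23 and 44 CG dinucleotides. The letters TATAAA, searched on both strands, were in 0 of these 6 windows and in 14.2% of all promoters. The letters GGGCGG, searched in the same way, were in 1 of the 6, that of Htr5a, and in 33.1% of all promoters. The expression tables do not test the use of these windows.

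Receptor transcripts were of modest level in this tissue. The family had a median of 2.69, 4.14 and 4.05 FPKM in animals 32, 39 and 68 over the 9 receptors whose mean passed a filter of 0.1 FPKM, while the 16943 genes past it had medians of 6.14, 6.57 and 7.06. At least 1 FPKM was reached in every animal by 8 of the 10 receptors, against 40.7% of all genes in the tables. The exceptions were Htr4 and Htr7. In descending order of mean level the family ran Htr2c, Htr1a, Htr2a, Htr1b, Htr5a, Htr3a, Htr6, Htr1f and Htr4, with Htr7 listed at 0. The first place of Htr2c rested on animal 68: without it the mean of Htr2c was 3.42 FPKM, against 12.7 in all animals, which put it below Htr2a, Htr1a, Htr1b and Htr5a. The mean of Htr4 was 0.535 FPKM without animal 68, against 1.13 in all animals. The depth was inferred as 16550241, 15460924 and 17670986 fragments in animals 32, 39 and 68, so that 1 FPKM stood for 16.6, 15.5 and 17.7 fragments per kilobase.

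**Figure D1:**
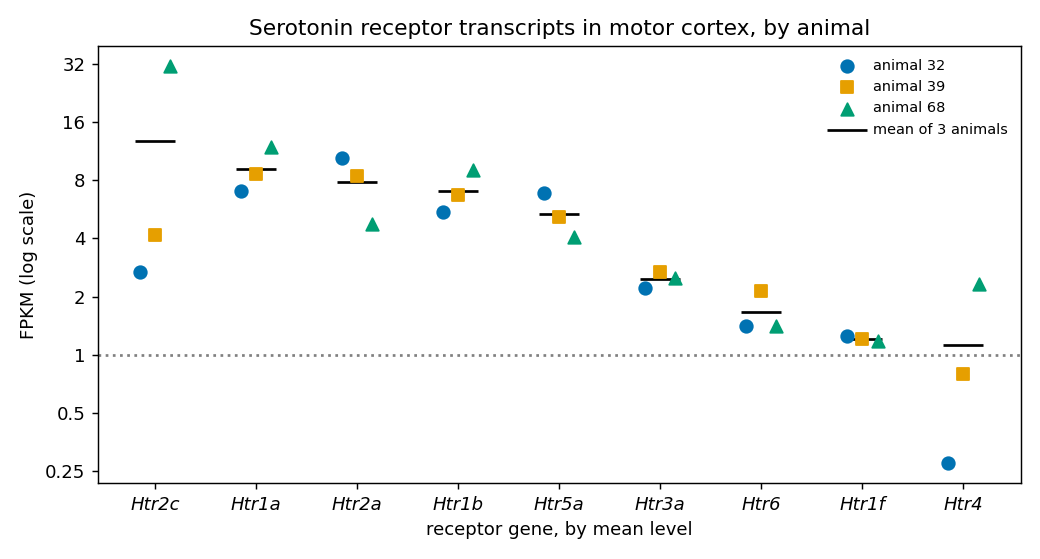
FPKM on a log axis for the 9 receptors above 0, ordered by mean, with 1 point per animal and a bar at the mean of 3. Htr2c spans 2.69 to 31.2 FPKM, while the 3 points of Htr1f lie between 1.17 and 1.25.

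Among the Gi/o-coupled receptors, Htr1a and Htr1b had the highest means and had the same pattern over the animals. Htr1a (chromosome 2, 36246628 to 36247896), the somatodendritic autoreceptor of raphe neurons and a postsynaptic receptor in cortex, measured 7.00, 8.61 and 11.9 FPKM in animals 32, 39 and 68. Htr1b (chromosome 8, 89129453 to 89130991), a receptor of axon terminals that restrains transmitter release, measured 5.46, 6.68 and 9.05 FPKM in the same animals. Both genes were highest in animal 68 and lowest in animal 32, by 1.70-fold for Htr1a and 1.66-fold for Htr1b. The FPKM ratio of Htr1a over Htr1b was 1.28 in animal 32, 1.29 in animal 39 and 1.31 in animal 68. These ratios lie closer together than the fragment counts given below can resolve.

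The 3 shortest receptor loci, Htr1a, Htr1b and Htr1f, have spans that are multiples of 3, as a coding sequence without UTRs would be, and their values came out within 0.0939 of whole fragments at the inferred depth. Htr1a rested on 147, 169 and 266 fragments in animals 32, 39 and 68, and Htr1b on 139, 159 and 246. The exact 95% Poisson intervals of Htr1a, which cover counting error only, were 10.5 to 13.4 FPKM in animal 68, 5.91 to 8.23 in animal 32 and 7.36 to 10.01 in animal 39. Those of animal 68 and of either other animal did not overlap for Htr1a. For Htr1b the intervals were 7.95 to 10.2 FPKM in animal 68, 4.59 to 6.44 in animal 32 and 5.68 to 7.81 in animal 39. The interval of animal 68 lay above both others for Htr1b as well, but above that of animal 39 only narrowly, at 7.95 against 7.81. All these intervals are on the deposited scale. Scaling by the median of ratios brought Htr1b to 8.74 in animal 68 and 6.65 in animal 39, and intervals were not computed there. The share of all genes with such a separation was not computed either. The 7 other receptor loci run over introns, from 9684 to 233150 bases, and their exon lengths and fragments are not given in the tables.

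Htr1f (chromosome 11, 1982113 to 1983513), the receptor targeted by the lasmiditan class of migraine drugs, was the steadiest member. It measured 1.25, 1.20 and 1.17 FPKM in animals 32, 39 and 68, from 29, 26 and 29 fragments. Counting error alone gave exact 95% intervals from 0.838 to 1.80 FPKM in animal 32, 0.784 to 1.76 in animal 39 and 0.784 to 1.68 in animal 68, so the closeness of the 3 values is finer than the counts can resolve. Its SD was 0.04 on the log2(FPKM + 0.1) scale, and 99.5% of the 847 genes in its class of mean expression had a larger one.

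Htr5a (chromosome 4, 199916 to 209599 in Rnor_6.0), a receptor found mainly in brain, had the opposite pattern to Htr1a and Htr1b. It measured 6.89, 5.16 and 4.05 FPKM in animals 32, 39 and 68. The highest value, in animal 32, was 1.70-fold the lowest, in animal 68. Its ratio over Htr1a was 0.984, 0.599 and 0.341 in animals 32, 39 and 68, so Htr5a was level with Htr1a in animal 32 and well under it in animal 68.

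The Gq-coupled pair traded places between animals. Htr2a (chromosome 15, 56666012 to 56735382), the receptor through which classical psychedelics act, measured 10.4, 8.37 and 4.72 FPKM in animals 32, 39 and 68. Htr2c (chromosome X, 118084890 to 118318039), whose mRNA is edited by adenosine deaminases in the codons of an intracellular loop, measured 2.69, 4.14 and 31.2 FPKM. Htr2a was the highest receptor in animal 32, Htr1a in animal 39 and Htr2c in animal 68. The FPKM ratio of Htr2c over Htr2a was 0.258 in animal 32, 0.495 in animal 39 and 6.62 in animal 68. Gene-level FPKM carries no information on editing.

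Of the Gs-coupled members, only Htr4 and Htr6 had values above 0. Htr6 (chromosome 5, 157503040 to 157518631), a receptor enriched in forebrain neurons and their primary cilia, measured 1.41, 2.14 and 1.41 FPKM in animals 32, 39 and 68. Htr4 (chromosome 18, 57654290 to 57819698), which raises cyclic AMP and is known from hippocampus and striatum, measured 0.274, 0.796 and 2.31 FPKM. The highest Htr4 value, in animal 68, was 8.43-fold the lowest, in animal 32. Htr7 (chromosome 1, 254549214 to 254671610) was listed at 0 in all 3 libraries. Genes that every cell uses, Hprt1, Rpl8 and Rps6, were listed at 0 as well, so the Htr7 entry cannot be read as absence, and Htr7 entered no test.

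Htr3a (chromosome 8, 53211438 to 53223804), the ion channel subunit, measured 2.20, 2.68 and 2.49 FPKM in animals 32, 39 and 68. The animals differed by at most 1.22-fold. Of 12 genes of the interneuron class in which Htr3a is known, 11 reached 1 FPKM in every animal, against 40.7% of all genes. The list median was 6.09, 7.33 and 7.12 FPKM. Of the 12, 6 were highest in animal 68 and 2 in animal 32, against 46.2% and 28.1% of all genes past the filter. Vip measured 30.0, 17.6 and 7.44 FPKM, and Cck 200, 207 and 89.7 FPKM, in animals 32, 39 and 68. Lamp5, which is also on the upper-layer list below, measured 139, 105 and 41.7 FPKM. Cnr1, the cannabinoid receptor, measured 36.8, 51.1 and 58.6 FPKM, and Calb2, a calcium-binding protein, 5.90, 6.10 and 5.23. These genes thus had no common pattern over the animals.

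A further 4 serotonin receptor genes of the tables lie outside the 10. Htr5b (chromosome 13, 37479758 to 37492680), a relative of Htr5a that is functional in rodents, measured 2.397, 4.607 and 4.109 FPKM in animals 32, 39 and 68. Its ratio over Htr5a was 0.348, 0.893 and 1.014, so Htr5b was level with Htr5a in animal 68 only. Htr1d measured 0.591, 0.747 and 0.855 FPKM, from 11, 13 and 17 fragments, and stood at 0.108, 0.112 and 0.0945 of Htr1b. Htr2b measured 0, 0.0328 and 0.0861 FPKM, and Htr3b, the partner subunit of Htr3a, was listed at 0 throughout.

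The make-up of the family was taken as the share of each receptor in its summed FPKM, which was 37.6, 39.8 and 68.3 in animals 32, 39 and 68. Gi/o-coupled receptors held 54.8, 54.4 and 38.3% of it. Gq-coupled receptors held 34.8, 31.5 and 52.6%. Htr2c alone took 7.15, 10.4 and 45.7%, and Htr2a 27.7, 21.0 and 6.91%. The remaining classes were small, with Gs-coupled receptors at 4.48, 7.39 and 5.45% and Htr3a at 5.86, 6.74 and 3.64%. Without Htr2c, a choice made after the data were seen, the sum of the other 9 was 34.9, 35.6 and 37.1 FPKM, so the larger total of animal 68 came with Htr2c. In that smaller pool Gi/o-coupled receptors held 59.0, 60.7 and 70.5% and Htr2a 29.8, 23.5 and 12.7%.

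**Figure D2:**
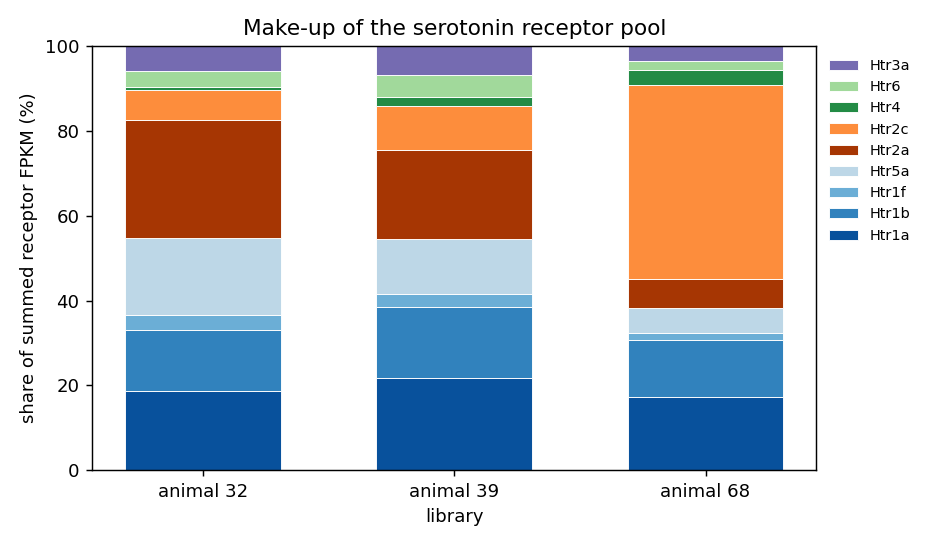
Stacked bars of the share (%) of each receptor in the summed FPKM of the family, 1 bar per animal, with Gi/o-coupled receptors in blue, Gq-coupled in orange and brown, Gs-coupled in green and Htr3a in purple. Htr2c fills 45.7% of the bar of animal 68, against 7.15% in animal 32 and 10.4% in animal 39.

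Which receptors differ in level was tested within animals, for the 36 pairs of the 9 receptors above the filter. For each denominator, the log2 ratio of every gene to that receptor was tested over the whole table with limma's moderated test against 0, and p-values adjusted after Benjamini and Hochberg had a threshold of 0.05. The ratio differed from 0 in 22 of 36 pairs. The share of all genes called against the same denominators was 82.0% for Htr1a, 68.6% for Htr2a, 83.5% for Htr1b, 79.1% for Htr5a, 89.0% for Htr3a, 86.4% for Htr6, 86.4% for Htr1f and 67.3% for Htr4, so a call is the common outcome. All ratios of a fit share the scatter of their denominator, and the moderated error can fall far below the spread of a pair. Without moderation, an alternative added after the data were seen, 12 of 36 pairs passed the limma fit. Without animal 39 the moderated count was 14. The direction was the same in 3 of 3 animals in 27 of the 36 pairs.

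Between neighbours in the order of levels, 1 of 8 pairs passed, that of Htr5a over Htr3a. On the log2 scale that ratio was 1.60, 0.92 and 0.68 in animals 32, 39 and 68 (mean 1.07, SE 0.20, n = 3; limma adjusted p = 0.000798). Without moderation the adjusted p of the same limma fit was 0.0754, while the other alternatives gave limma adjusted p from 1.03e-09 to 0.0203. Of the neighbouring pairs, 0 of 8 passed without moderation, with 15 of all 36 pairs at an unadjusted p under 0.05. The other 7 neighbours did not pass. Among the 5 highest receptors, Htr2c over Htr1a was -1.35, -1.04 and 1.39 (limma adjusted p = 0.321), Htr1a over Htr2a was -0.56, 0.04 and 1.31 (0.633), Htr2a over Htr1b was 0.92, 0.32 and -0.92 (0.723) and Htr1b over Htr5a was -0.33, 0.37 and 1.14 (0.290), on the log2 scale in animals 32, 39 and 68. Each of these 4 pairs changed sign between animals. With 1 animal left out, 3 of them passed in limma, each on a pair of libraries. Without animal 68 the limma adjusted p was 8.77e-08 for Htr2c over Htr1a (mean -1.19) and 0.00379 for Htr2a over Htr1b (mean 0.62). Without animal 32 it was 0.0340 for Htr1b over Htr5a (mean 0.75). A pair of libraries holds little on the spread over animals, so these p-values lean on the error moderated over all genes. Among the 4 lowest, Htr3a over Htr6 was 0.61, 0.31 and 0.77 (limma adjusted p = 0.111) and Htr6 over Htr1f was 0.16, 0.79 and 0.25 (0.131), both with 1 direction in 3 of 3 animals. The mean of Htr3a over Htr6, 0.56, was larger than its SD of 0.23. Htr1f over Htr4 was 1.85, 0.54 and -0.92 (limma adjusted p = 0.619).

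Htr1a over Htr1b shows how the test weighs spread. Animals 32, 39 and 68 gave log2 ratios of 0.35, 0.36 and 0.39, with an SD of 0.02. That SD is finer than the fragment counts of both genes can resolve, and the unmoderated fit below rests on it. The moderated limma fit gave an adjusted p of 0.152 because its SE of 0.24 is set by all ratios to Htr1b, while the unmoderated fit gave 0.0204 and the other alternatives from 0.0979 to 0.529. Htr2c over Htr6 is the opposite case. Its log2 ratios of 0.88, 0.92 and 4.37 had an SD of 2.003 but a moderated SE of 0.30, and the call in the limma fit (adjusted p = 3.01e-11) ended without moderation (adjusted p = 0.243) and without animal 39 (0.0944), and the other alternatives gave 7.81e-13 to 0.0134. Of the 8 pairs with Htr2c, 4 had the same direction in 3 of 3 animals, those over Htr3a, Htr6, Htr1f and Htr4, and all 4 calls were lost without moderation.

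**Figure D3:**
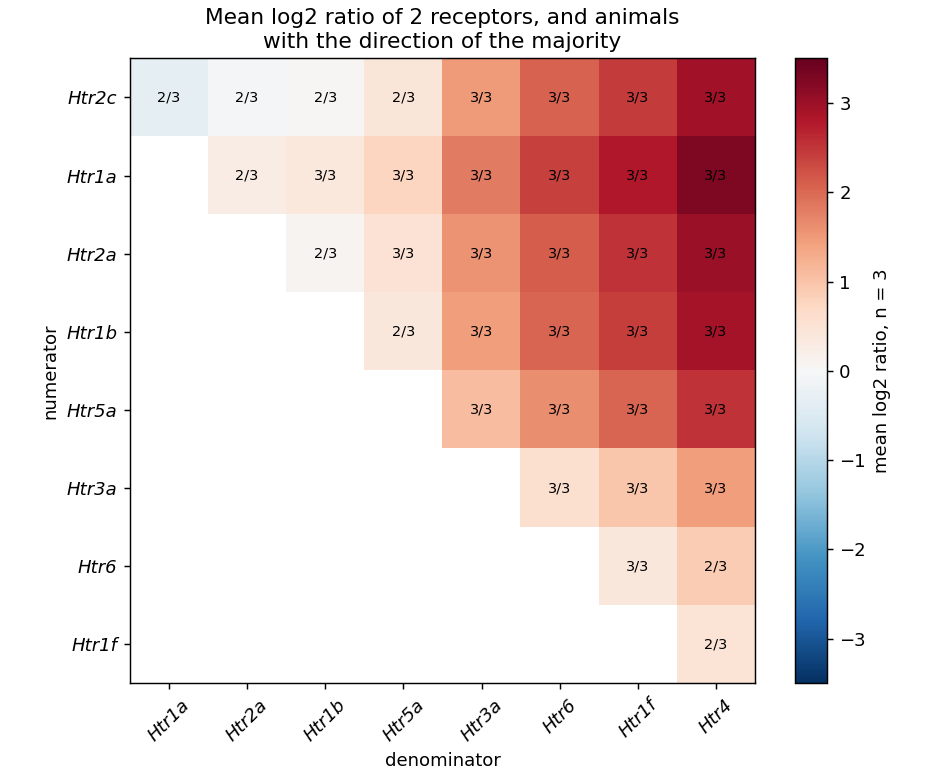
Mean log2 ratio (colour) of the receptor in the row over the receptor in the column for 36 pairs, with the number of animals that share the majority direction in each cell. Ratios over the 4 lowest receptors are mostly red with 3/3, while pairs among the 5 highest include 2/3 cells.

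Spread between animals set the receptors apart from one another. A range above 2-fold between the highest and the lowest animal, on FPKM + 0.1, was found for 3 of the 9 receptors, Htr2c (11.2-fold), Htr4 (6.45-fold) and Htr2a (2.18-fold), against 23.1% of all genes past the filter. Htr2c and Htr4 had that range with the highest value in animal 68, as had 13.6% of genes. Htr2a had it with the highest value in animal 32, as had 4.89% of genes. Without animal 68 only Htr4 kept a range above 2-fold. Animal 39 lay between the other animals for 7 of the 9 receptors, all but Htr3a and Htr6, and for 51.6% of genes.

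Set against genes of a similar mean level, Htr2c was among the most variable. Its SD was 1.87 on the log2 scale, against a median of 0.15 in its class of 847 genes, of which 0.354% had a larger SD. Htr4 had an SD of 1.35 against a class median of 0.42, with 4.13% of its class above it. Htr2a had an SD of 0.58 against 0.20, with 9.09% above it. Htr1a (0.38), Htr1b (0.36) and Htr5a (0.38) had 19.8, 21.8 and 24.5% of their classes above them, Htr6 (0.33) had 58.9% and Htr3a (0.14) had 85.2%. The highest and the lowest animal of Htr2c, Htr4, Htr2a, Htr1a, Htr1b, Htr5a and Htr1f were the same after scaling by the median of ratios or to equal totals without mitochondrially encoded genes.

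Marker genes of other tissue also differed between the animals. All 11 choroid plexus genes found were highest in animal 68, each by more than 2-fold over the lowest animal. Of all genes past the filter, 13.6% had that pattern, and none of the 11 was at 0 in every library. Their summed FPKM was 61.1, 710 and 8256 in animals 32, 39 and 68. Transthyretin (Ttr) measured 8.36, 615 and 7264 FPKM, Enpp2 49.3, 71.9 and 633, and Kl 0.126, 2.66 and 58.0. Clic6 (0.102, 2.95 and 51.0), Sostdc1 (0.0685, 4.29 and 57.5), Kcnj13 (1.63, 5.35 and 52.7), Folr1 (0.453, 3.88 and 39.8), Slc4a5 (0.155, 1.51 and 37.6), F5 (0.0576, 0.750 and 32.8), Aqp1 (0.807, 1.63 and 25.6) and Prlr (0.0169, 0.308 and 4.06) had the same order. Between animals 39 and 32 the summed choroid plexus level differed 11.6-fold and Htr2c 1.54-fold. Most of that sum was Ttr in animal 39 and Enpp2 in animal 32. The step from animal 32 to animal 39 differed by gene, from 49.3 to 71.9 FPKM for Enpp2 and from 8.36 to 615 for Ttr. The part of this tissue in the Htr2c value of animal 68 was not tested.

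Striatal neuron genes were also higher in animal 68, in 9 of 11 cases, 8 of them with a range above 2-fold. Their summed FPKM was 162, 137 and 285 in animals 32, 39 and 68. Drd1 (2.67, 3.27 and 9.90 FPKM), Adora2a (1.05, 1.35 and 11.2), Rgs9 (2.39, 3.15 and 18.2), Drd2 (1.53, 0.887 and 6.31), Ppp1r1b (65.1, 55.9 and 134), Penk (14.4, 18.1 and 38.0), Tac1 (2.50, 3.86 and 6.40), Pde10a (15.2, 19.4 and 23.6) and Gpr6 (2.21, 0.925 and 2.51) were highest there. Pdyn (18.1, 14.4 and 17.2) was highest in animal 32. Oligodendrocyte, astrocyte and microglial genes were highest in animal 68 in 10 of 10 cases each, with sums of 3355, 5171 and 9059 FPKM for oligodendrocytes, 1427, 1517 and 2497 for astrocytes and 94.8, 130 and 184 for microglia. Of all genes past the filter, 46.2% were highest in animal 68. The part of striatal tissue or glia in the Htr4, Htr1a and Htr1b values was not tested. In bulk tissue a larger number of cells of a type and more RNA per cell cannot be told apart.

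Upper-layer cortical genes had the order of Htr2a and Htr5a. Of 9 found, 8 were highest in animal 32, where 28.1% of all genes past the filter were highest, and 6 of these had a range above 2-fold. Cux2, a transcription factor of the upper layers, measured 27.0, 16.8 and 7.24 FPKM in animals 32, 39 and 68, Mef2c 43.6, 28.4 and 10.5, and Lamp5 139, 105 and 41.7. Calb1 measured 72.8, 43.0 and 21.0. Wfs1 (75.2, 102 and 91.2) was the exception. Layer 5 genes varied less, with medians of 14.8, 15.4 and 11.3 FPKM. Layer 6 genes had medians of 4.53, 5.97 and 8.85, but their summed FPKM went the other way, at 97.1, 90.7 and 74.3. Tbr1, the highest of them, measured 43.7, 36.0 and 15.9. Of the 10 layer 6 genes, 5 were highest in animal 68 and 3 in animal 32, against 46.2% and 28.1% of all genes past the filter. Hippocampal genes had medians of 1.52, 2.30 and 3.09 FPKM, with Fibcd1 listed at 0 throughout. Defining cortical projection neuron genes were present in every animal, with Slc17a7 at 521, 537 and 495 FPKM. Whether the share of upper layers in each dissection accounts for the Htr2a and Htr5a values was not tested.

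**Figure D4:**
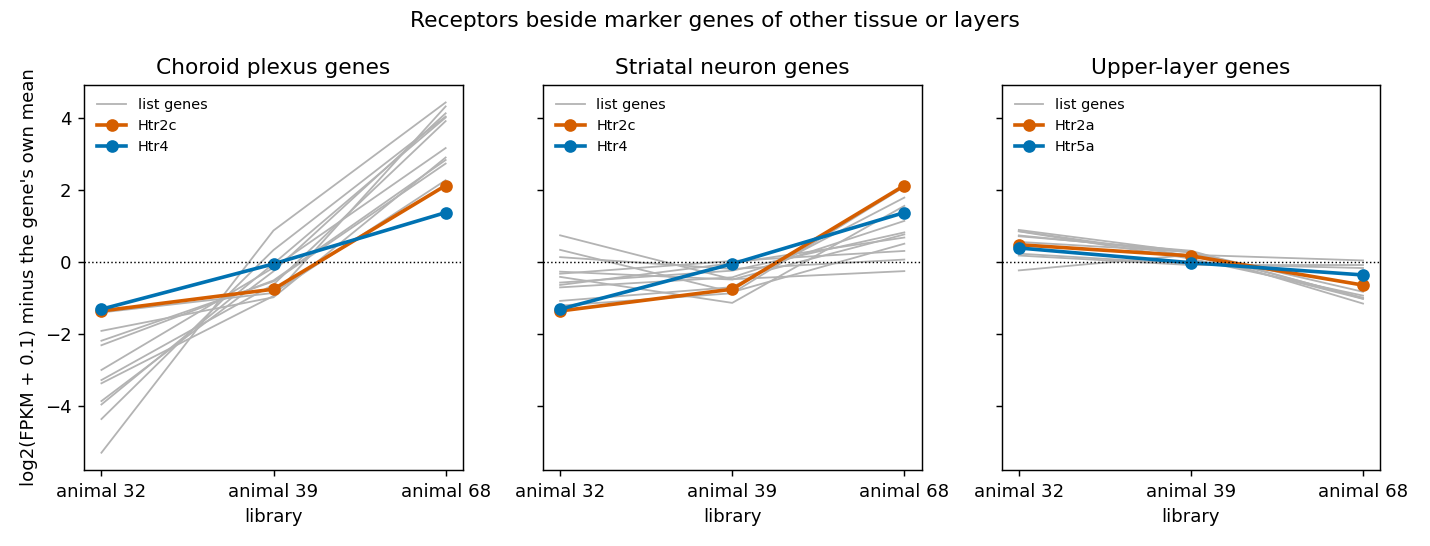
Difference of log2(FPKM + 0.1) from each gene's own mean over the 3 animals, for Htr2c and Htr4 beside choroid plexus and striatal neuron genes and for Htr2a and Htr5a beside upper-layer genes (grey, 1 line per gene). Lines only join the values of 1 gene, as the animals have no order; Htr2c and all 11 choroid plexus genes peak in animal 68, while Htr2a and Htr5a are highest in animal 32.

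For the 3 receptors with a range above 2-fold, genes with the most similar profile were taken among 13377 genes whose mean reached 1 FPKM, by the root mean square difference of centred log2 values over 3 animals. Those near Htr2c included Steap1 (difference 0.05), the cadherin Cdh3 (0.08), Enpp2 (0.11) and Cox8b (0.11), and 3 genes lay within 0.1. Those nearest to Htr4 were Ccdc114 (0.01; 0.723, 1.87 and 5.31 FPKM), Ston2 (0.03), Daw1 (0.05), Hydin (0.05) and Dnali1 (0.05), with 15 genes within 0.1. Those nearest to Htr2a were the clock repressor Nr1d1 (0.0062; 44.8, 35.9 and 20.6 FPKM), Pdzrn3 (0.0070), AABR07052897.3 (0.0093), Arhgap32 (0.01) and Clec2l (0.01), but 178 genes lay within 0.1 of Htr2a, so these names stand for many. These likenesses rest on 3 animals and were not tested.

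Among genes of the wider serotonin system, those for breakdown reached higher levels than those that define serotonin neurons. Of 8 genes that define serotonin neurons, Slc6a4 (the serotonin transporter), Fev and Lmx1b were listed at 0 in every library, which, as for Htr7, cannot be read as absence. Tph2, the neuronal tryptophan hydroxylase, measured 0.820, 0.777 and 0.417 FPKM in animals 32, 39 and 68, and Slc18a2, the vesicular monoamine transporter, 0.0207, 0.0888 and 0.0583. Ddc (1.63, 1.24 and 1.06) and Gata2 (2.30, 1.97 and 1.26), which other cells also use, reached 1 FPKM in every animal. Among the breakdown enzymes, Maoa stood at 30.1 ± 1.34 FPKM and Maob stood at 22.5 ± 5.02 FPKM (SD, n = 3). Of the 16 genes for synthesis, transport and breakdown, 9 reached 1 FPKM in every animal, against 40.7% of all genes. They were led by the pterin reductase Qdpr (147 ± 51.8) and Aldh2 (33.2 ± 18.5).

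Downstream of the receptors, transducer genes covered a wide range of levels, with means from 0.404 FPKM for the channel subunit Kcnj5 up to the values below. In the Gi/o list 11 of 12 genes reached 1 FPKM in every animal, as did 40.7% of all genes, among them the G protein Gnao1 (185 ± 11.02 FPKM), Gnai2 (79.9 ± 12.9) and Gnai1 (73.6 ± 4.49). The list median was 57.3, 40.6 and 27.3 FPKM in animals 32, 39 and 68. Rgs4, a brake on Gi/o and Gq signalling, measured 293, 160 and 56.4 FPKM, and Gnai2 68.1, 77.8 and 93.8 FPKM, in animals 32, 39 and 68. Of the 12 genes, 7 were highest in animal 32, as Htr2a and Htr5a were, and 3 in animal 68, as Htr1a and Htr1b were. Over all genes past the filter, 28.1% were highest in animal 32 and 46.2% in animal 68. In the Gq list 11 of the 13 genes found reached 1 FPKM in every animal, among them the kinase Prkcb (113 ± 16.2), the G protein Gnaq (63.6 ± 6.36) and the calcium release channel Itpr1 (63.3 ± 3.14). In the Gs list it was 12 of 13, led by the kinase subunits Prkar1b (200 ± 34.6) and Prkacb (88.6 ± 27.2) with Gnas (76.7 ± 3.49) and Adcy1 (67.6 ± 29.6). Gnal, the Gs-like protein of striatal neurons, measured 6.16, 6.40 and 18.1 FPKM in animals 32, 39 and 68.

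Partners and regulators of the receptors varied little between animals. All 14 genes found reached 1 FPKM in every animal, against 40.7% of all genes, and 0 of 14 had a range above 2-fold with the highest value in animal 68 or 32, against 13.6% and 4.89% of genes past the filter. The medians were 19.7, 20.4 and 18.9 FPKM. Dlg4, a postsynaptic scaffold that binds Htr2a, measured 210 ± 36.3 FPKM (SD, n = 3). Adar, an RNA-editing deaminase, measured 41.5 ± 3.27, and its relative Adarb1 19.1 ± 2.35. S100a10, which binds the Htr1b and Htr4 proteins, measured 27.6 ± 3.20, and the arrestin gene Arrb1 22.4 ± 1.36.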

How the data were processed

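Libraries of mRNA from the motor cortex of 3 untreated rats were used. Per the labels, the authors counted the fragments of each gene and turned them into the deposited FPKM values with their own script. The submitters' processing notes list HISAT2 2.0.4, StringTie 1.3.0 and the build Rnor_6.0. Annotation release, strand setting and read length: not given in the sources used here. FPKM is not a count, so ratios of log2(FPKM + 0.1) within each animal were tested over 16942 genes with limma 3.58.1 in R 4.3.3 (moderated one-sample test with trend, Benjamini-Hochberg adjustment, 1 fit per denominator). Python 3.11.15, pandas 2.3.3, numpy 2.4.6 and scipy 1.17.1 were used for the rest.

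Depth was inferred from loci of up to 400 bases as the value of 1 fragment. Of such loci above 1 fragment, 77.5, 80.5 and 72.6% lay within 0.02 of a whole number in animals 32, 39 and 68. Classes of mean expression are 20 equal groups of the genes past a filter on the mean of 0.1 FPKM. Of 187 listed symbols, 182 were found. No value above 0 was shared by 2 libraries for the same gene. FPKM sums were 479640, 472954 and 457994.

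Receptors, lists and tests were chosen with earlier results of these data known. Named genes are the receptors, up to 4 genes with the highest mean of a list and any listed at 0, all choroid plexus and striatal genes, and the 5 nearest profiles, and a few genes under this rule are not reported here; Cux2, Calb2, Kcnj5, Gnal and Adarb1 fall outside this rule and were chosen after their values were seen. Receptors whose fragments overlap those of other genes cannot be told apart without strand. All 3 animals form 1 group, so no groups were compared.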

Additional observations from a re-analysis of the deposited data

How the results depend on the processing

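The count of 22 differing pairs of receptors was also 22 with a pseudocount of 1 or 0.01, with no filter, with a filter at 1 FPKM and under both scalings, and 19 without a trend. It was 12 without moderation, and from 14 to 26 with 1 animal left out. The count of 1 differing neighbouring pair was 0 without moderation and ran from 1 to 3 with 1 animal left out. The count of 3 receptors with a range above 2-fold was 2 with a pseudocount of 1 and ran from 1 to 3 with 1 animal left out. The 8 receptors at 1 FPKM or more in every animal were 8 at 0.5 FPKM and 6 at 2 FPKM. The share of Gi/o-coupled receptors in the pool was 49.2%, and 63.4% without Htr2c; that of Gq-coupled receptors was 39.6% and 22.0%, and that of Gs-coupled receptors 5.77% and 7.71%. Each class share stayed within its SD over all Htr genes of the tables and with 1 animal left out.

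Mean log2 ratios changed sign in these cases. With a pseudocount of 1, Htr2c over Htr2a was 0.00029. Without animal 32, Htr2c over Htr1a was 0.18, Htr2c over Htr2a 0.85, Htr2a over Htr1b -0.30 and Htr1f over Htr4 -0.19. Without animal 39, Htr2c over Htr1a was 0.02, Htr2c over Htr2a 0.39 and Htr2a over Htr1b -0.0035. Without animal 68, Htr1a over Htr2a was -0.26, Htr2c over Htr5a -0.82 and Htr2c over Htr1b -0.84, the last with a limma adjusted p of 0.000161, against 0.115 to 0.975 under its other alternatives. With 1 animal left out, the ranges were -1.19 to 0.18 for Htr2c over Htr1a, -1.46 to 0.85 for Htr2c over Htr2a, -0.26 to 0.68 for Htr1a over Htr2a, -0.84 to 0.55 for Htr2c over Htr1b, -0.30 to 0.62 for Htr2a over Htr1b, -0.82 to 1.303 for Htr2c over Htr5a and -0.19 to 1.19 for Htr1f over Htr4. Leaving out 1 animal also gave limma calls that all 3 animals did not: without animal 68 for Htr2c over Htr1a, Htr2c over Htr2a, Htr2a over Htr1b and Htr3a over Htr4, and without animal 32 for Htr2c over Htr5a and Htr1b over Htr5a. The cause was not tested. Leaving out 1 animal rests on a pair of libraries each time. No comparison of groups, paired or not, was possible because all animals form 1 group. The receptor ratios were taken within each animal throughout, so each animal was its own pair. With 3 libraries, receptors near 1 FPKM rest on few fragments, and exon lengths of 7 receptors are unknown.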
